A study of Mus musculus with 10 samples.

Results

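Tuft cells are a sparse chemosensory lineage of the intestinal epithelium, and 10 genes that mark them were followed in whole jejunal tissue from 5 control mice (Vil-Cre) and 5 mice of the genotype Vil-Cre:NDI1. The genes were taken by symbol, and each of Pou2f3, Gfi1b, Gnat3, Trpm5, Ptgs1, Hpgds, Il25, Dclk1, Avil and Sh2d6 had 1 row among the 45707 rows of the expression table. Both groups were male littermates that carried the Villin-Cre transgene, which drives Cre recombinase in the intestinal epithelium. Vil-Cre:NDI1 mice also carried an NDI1 allele behind a lox-stop-lox cassette, so that Cre switches on NDI1, the yeast NADH dehydrogenase that regenerates NAD+ without complex I, while Vil-Cre controls lacked that allele. The mice were on standard chow and 8 to 12 weeks old. They were fasted overnight for 16 to 18 h and given water by gavage, and the jejunum was flushed and frozen 1 h later, so no animal here had received a drug. Each library was made from 1 mouse and from the jejunal tissue as a whole, not from sorted epithelium.

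A tuft cell senses the gut lumen with taste-type signalling, in which receptors act through a G protein and calcium release to open the cation channel TRPM5. It answers with the cytokine IL-25, with leukotrienes and prostaglandins, and with acetylcholine. IL-25 acts on group 2 innate lymphoid cells, whose IL-13 in turn favours tuft and goblet cells, a loop known from helminth and protist infection of the small intestine.

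Each library held 10145705 to 12371530 reads on genes, and the 10 genes together took 874 to 2567 of them. The NDI1 transgene had 0 or 1 reads in the control libraries and 1002 to 2659 in Vil-Cre:NDI1 libraries, as the labels say, and these reads do not show which cells of the tissue carried it. Values below are normalized counts, reads divided by 1 size factor per library, and every level is for the whole tissue. In such tissue, fewer tuft cells and less RNA per tuft cell cannot be told apart. Library Vil-Cre 5 stood apart by B-cell markers, with 314.7 normalized counts of Cd79a against 9.85 to 53.9 in the other 9 libraries. No pair of libraries looked like a repeat of the other, with a chi-square per gene of 13.2 to 61.9 within groups, so all 10 were kept.

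Within the 10 genes, 2 things stood out in these libraries. Dclk1 was lower in all 5 Vil-Cre:NDI1 mice than in any control mouse, and Gfi1b was higher in 4 of the 5 than in any control mouse. Gfi1b had only 1 to 10 reads per control library, and the share of all genes with its pattern was not counted. Limma, run across all genes at an adjusted p under 0.05, called 0 of the 8 tuft cell genes that could be tested, Dclk1 included. Gfi1b and Il25 were too low in most mice for that test, and Gfi1b had an adjusted p of 0.867 when limma took every gene with a read. The called share over all 14301 genes was 0.00699%, which is the NDI1 transgene alone. Among the 8 genes tested, 1 had groups that did not overlap with Vil-Cre:NDI1 lower, against 0.294% of all genes, and 1 had an unadjusted p under 0.05 with Vil-Cre:NDI1 lower, against 2.11% of all genes. Both counts are Dclk1.

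Promoter sequence is shown for Trpm5, Avil and Sh2d6 because their levels rose and fell together from mouse to mouse, and for Dclk1 because its 2 annotated starts are counted as 1 gene. RefSeq promoters (GRCm38.p6) were matched by symbol for 8 of the 10 genes, 9 promoters in all, and for Pou2f3 and Il25 none was matched. Each window below is the 250 bases before the start on the gene's own strand. Capitals mark ATGCAAA on either strand, the first 7 letters of the octamer ATGCAAAT, a motif of POU-domain factors, the family of POU2F3.

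Trpm5, chr7:143094643-143094892, minus strand: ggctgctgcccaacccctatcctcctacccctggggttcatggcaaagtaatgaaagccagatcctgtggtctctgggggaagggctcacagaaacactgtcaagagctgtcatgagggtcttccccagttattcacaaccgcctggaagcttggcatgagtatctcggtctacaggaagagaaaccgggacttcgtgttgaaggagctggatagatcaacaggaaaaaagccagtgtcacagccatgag
Avil, chr10:127000459-127000708, plus strand: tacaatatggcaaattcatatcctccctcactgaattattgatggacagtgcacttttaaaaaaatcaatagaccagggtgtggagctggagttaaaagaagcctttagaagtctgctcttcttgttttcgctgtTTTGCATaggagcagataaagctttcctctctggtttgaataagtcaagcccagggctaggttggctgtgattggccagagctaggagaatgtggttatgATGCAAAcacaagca
Sh2d6, chr6:72520037-72520286, minus strand: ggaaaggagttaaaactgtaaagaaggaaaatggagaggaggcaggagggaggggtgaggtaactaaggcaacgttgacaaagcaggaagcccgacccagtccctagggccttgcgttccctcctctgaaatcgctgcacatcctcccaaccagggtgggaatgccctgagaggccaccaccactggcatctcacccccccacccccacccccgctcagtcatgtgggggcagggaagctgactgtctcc
Dclk1, upstream start, chr3:55242114-55242363, plus strand: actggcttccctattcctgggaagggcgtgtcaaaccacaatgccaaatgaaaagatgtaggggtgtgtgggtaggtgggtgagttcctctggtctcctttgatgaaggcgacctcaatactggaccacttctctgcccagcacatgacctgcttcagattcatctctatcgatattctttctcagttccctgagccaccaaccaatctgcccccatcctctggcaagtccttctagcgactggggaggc
Dclk1, downstream start, chr3:55461478-55461727, plus strand: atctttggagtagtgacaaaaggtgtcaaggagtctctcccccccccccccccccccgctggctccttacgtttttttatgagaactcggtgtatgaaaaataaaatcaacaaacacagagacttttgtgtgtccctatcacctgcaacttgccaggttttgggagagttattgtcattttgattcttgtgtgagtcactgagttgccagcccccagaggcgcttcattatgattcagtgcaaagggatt

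The Avil window held 2 matches to the 7 letters, the first at base -115 on the strand opposite to the gene, and the windows of Trpm5, Sh2d6 and Dclk1 held none. In Hpgds the full 8 letters stood at base -174 on the gene's own strand, shown with its surroundings because it was the only octamer among the 9 promoters. Of the 250 bases of the Hpgds window, 178 lie in a GENCODE exon of Hpgds, and the octamer is among them, since that gene model starts upstream of the RefSeq start.

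Hpgds, chr6:65144886-65144915, minus strand: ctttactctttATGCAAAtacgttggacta

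The 7 letters were found in promoters of 2 of the 8 genes, against 4.12% of 32851 promoters, and the 8 letters, which contain them, in 1 of the 8 against 1.6%. A match describes the sequence and is not a bound site. The Sh2d6 window lies inside a longer GENCODE gene model, where it covers 0 exonic bases.

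The transcription factors were Pou2f3 and Gfi1b. Pou2f3 (ENSMUSG00000032015, GRCm38 chromosome 9, 43123939 to 43210369) encodes the POU-domain factor on which tuft cells depend for their formation. Its normalized counts were 28.97, 43.8, 77.1, 11.1 and 37.9 in Vil-Cre mice 1 to 5 and 22.5, 30.1, 22.3, 30.4 and 18.8 in Vil-Cre:NDI1 mice 1 to 5. The control mice spread over the whole range, with both the highest and the lowest library among them, and the groups overlapped. The log2 fold change on the log2(value + 1) scale was -0.45 (95% interval -1.37 to 0.48, adjusted p = 0.998 with limma). It ranged from -0.82 without Vil-Cre 4 to -0.15 without Vil-Cre 3, so single control mice set its size.

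Gfi1b (ENSMUSG00000026815, chromosome 2, 28609450 to 28621982) encodes a zinc-finger repressor that is used in tuft cells and also in red cell and platelet precursors. Vil-Cre mice 1 to 5 had 0.934, 3.28, 7.01, 3.03 and 9.71 normalized counts, from 1 to 10 reads per library. Vil-Cre:NDI1 mice 1 to 5 had 45.1, 133.9, 27.1, 17.6 and 3.52, from 147 reads in mouse 2 down to 3 reads in mouse 5. So 4 of 5 Vil-Cre:NDI1 mice stood above every control mouse, while mouse 5 lay within the control range. The group means were 4.79 ± 3.51 and 45.5 ± 51.7 (SD, n = 5 each), a 9.48-fold difference that rested on few reads in the controls. Without Vil-Cre:NDI1 2 the second mean was 23.3 ± 17.4 (SD, n = 4) and the difference 4.87-fold. Gfi1b fell short of the filter for the test across genes, and a two-sided exact permutation test of its log2 values gave a difference of 2.47 with p = 0.0317, unadjusted, over 252 assignments. With 1 mouse left out, the exact p lay between 0.00794 and 0.0635. It was above 0.05 without Vil-Cre 1, 2 or 4 and without Vil-Cre:NDI1 1 or 2. On the recovered reads, DESeq2 called Gfi1b (log2 fold change 3.25, adjusted p = 0.0266), where it called 31 of 16976 genes with an adjusted p, or 0.183%, and edgeR did not (3.21, adjusted p = 0.997). Without Vil-Cre 3 and 4, whose value of 1 read is near 1, the adjusted p was 0.0347 with DESeq2 and 0.485 with edgeR. DESeq2 then called 1.77% of genes.

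Gfi1b did not follow the level of the other tuft cell genes across the mice. Its correlation over 10 mice was 0.102 with Trpm5 and -0.162 with the mean level of the 8 tuft cell genes tested (Spearman 0.127 and -0.248). Red cell transcripts, a list chosen after the Gfi1b values had been seen, summed to 122.4 to 328.6 normalized counts in Vil-Cre mice and 180.1 to 871.6 in Vil-Cre:NDI1 mice. They were highest in Vil-Cre:NDI1 4, which had 17.6 of Gfi1b, and 659.6 in Vil-Cre:NDI1 2, which had the most Gfi1b. The red cell sum and Gfi1b had an r of 0.556 over the 10 mice (Spearman 0.43), as a description. Of the 6 platelet markers, 1 (Ppbp) had at most 3 reads in every library. Pf4 had at most 10.02 normalized counts and Gp9 at most 4.90, while Itga2b had 11.8 to 56.1, Itgb3 94.9 to 169.1 and Gp1bb 625.2 to 1443. The 6 summed to 796.5 to 1522 in Vil-Cre mice and 827.3 to 1618 in Vil-Cre:NDI1 mice. The part of red cell or platelet RNA in the Gfi1b values was not tested.

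**Figure D1:**
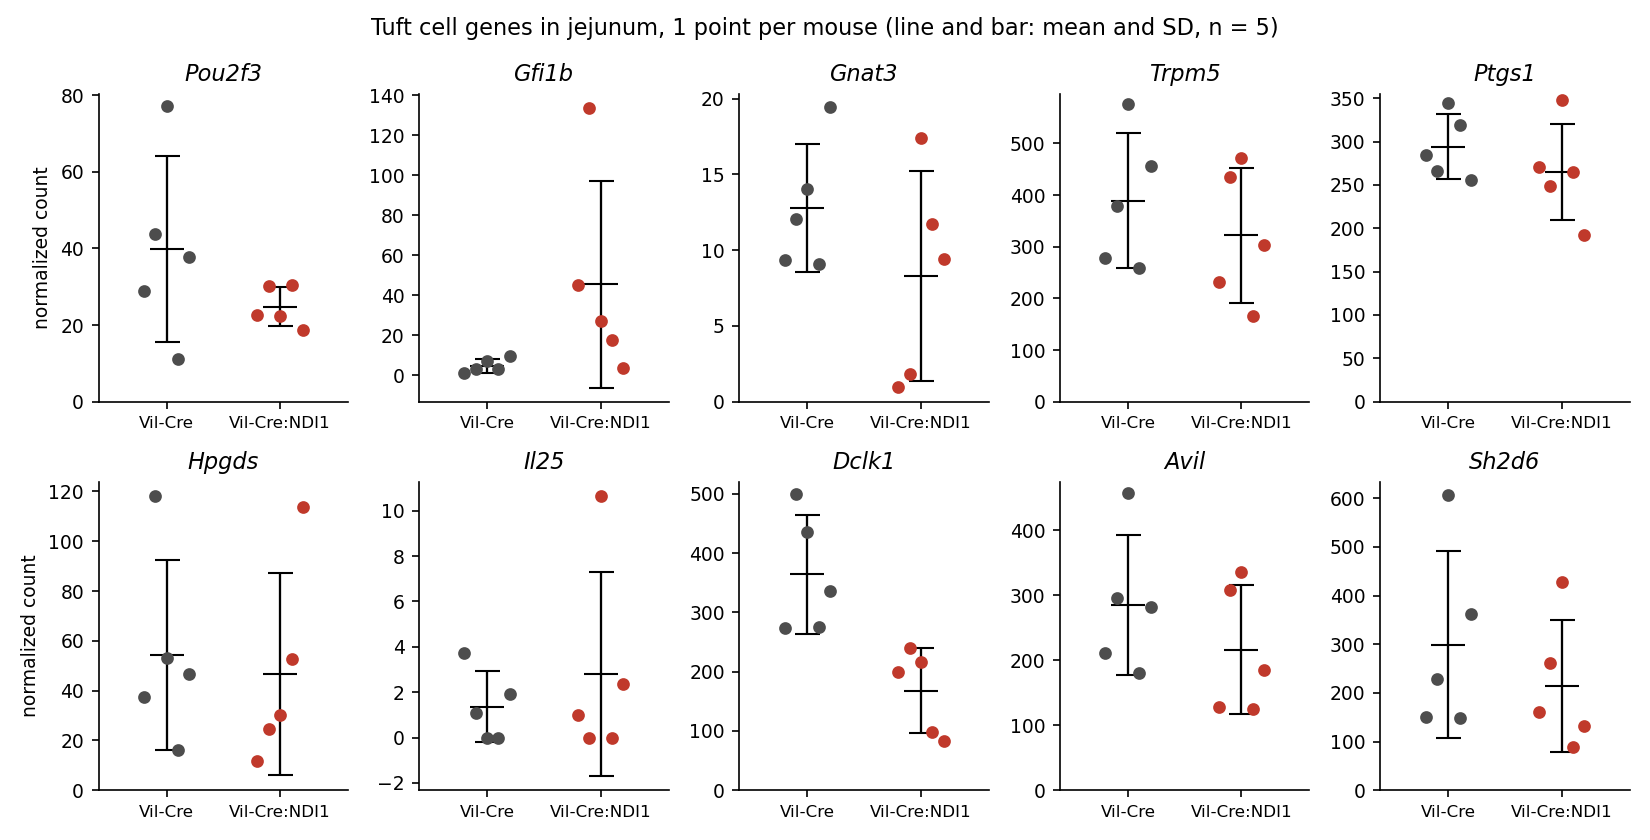
Normalized counts of the 10 tuft cell genes, 1 panel per gene and 1 point per mouse, with Vil-Cre in grey and Vil-Cre:NDI1 in red. Lines and bars give the mean and SD of 5 mice. Dclk1 is the only panel in which the groups do not overlap, and Gfi1b is the only one in which 4 of 5 Vil-Cre:NDI1 mice lie above every control mouse.

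Taste-type signalling was represented by Gnat3 and Trpm5. Gnat3 (ENSMUSG00000028777, chromosome 5, 17962549 to 18019834) encodes gustducin, the G-protein alpha subunit of taste cells. It was rare in this tissue, at 9.34, 12.04, 14.03, 9.10 and 19.4 normalized counts in Vil-Cre mice 1 to 5 and 0.980, 1.82, 17.4, 11.8 and 9.39 in Vil-Cre:NDI1 mice 1 to 5. Vil-Cre:NDI1 1 and 2 held 1 and 2 Gnat3 reads, while the other 3 lay in the control range. Its log2 fold change was -0.99 (95% interval -2.34 to 0.36, adjusted p = 0.998 with limma), and it was -0.55 without Vil-Cre:NDI1 1.

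Trpm5 (ENSMUSG00000009246, chromosome 7, 143069153 to 143094642) encodes the calcium-activated cation channel at the end of that pathway. Normalized counts were 277.5, 378.6, 576.1, 258.8 and 455.5 in Vil-Cre mice 1 to 5 and 231.3, 435.5, 471.6, 166.5 and 304.0 in Vil-Cre:NDI1 mice 1 to 5. The means were 389.3 ± 131 and 321.8 ± 130 (SD, n = 5 each), so the group difference was smaller than the spread between mice of either group. This gave a log2 fold change of -0.31 (95% interval -0.98 to 0.35, adjusted p = 0.998 with limma), which was -0.10 without Vil-Cre:NDI1 4 and -0.16 without Vil-Cre 3. An exon of Tssc4 overlaps Trpm5 on the other strand, at 156.7 to 250.5 normalized counts, and whether reads were counted by strand is not given in the sources used here. Both genes were highest in Vil-Cre 3 and lowest in Vil-Cre:NDI1 4, and whether they share reads was not tested.

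The prostaglandin enzymes behaved unlike each other. Ptgs1 (ENSMUSG00000047250, chromosome 2, 36230426 to 36252272), cyclooxygenase 1, was the steadiest of the 10 genes. It had 284.1, 265.9, 344.6, 319.5 and 255.4 normalized counts in Vil-Cre mice 1 to 5 and 270.5, 248.7, 347.6, 264.4 and 192.5 in Vil-Cre:NDI1 mice 1 to 5, a 1.81-fold range over all mice. Its log2 fold change was -0.17, with the narrowest 95% interval of the 8 genes tested, -0.50 to 0.16 (adjusted p = 0.998 with limma), and it was -0.058 without Vil-Cre:NDI1 5. Ptgs1 is also made outside the epithelium, so its level in whole tissue is not a tuft cell level alone.

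Hpgds (ENSMUSG00000029919, chromosome 6, 65117293 to 65144908) encodes the haematopoietic prostaglandin D synthase. Its normalized counts were 37.4, 118.2, 53.1, 16.2 and 46.6 in Vil-Cre mice 1 to 5 and 11.8, 24.6, 30.02, 52.9 and 113.9 in Vil-Cre:NDI1 mice 1 to 5. High and low mice occurred in both groups, over a 10.1-fold range. On the log2 scale the difference was -0.34 (95% interval -1.66 to 0.98, adjusted p = 0.998 with limma), and it turned to 0.0066 without Vil-Cre 2 and to 0.039 without Vil-Cre:NDI1 1. Mast cells also make this enzyme, and 6 of 10 mast cell markers, among them Cpa3, Tpsb2, Cma1, Ms4a2 and Fcer1a, had at most 3 reads in every library. The other 4 were detected, with Kit at 113.6 to 321.5 normalized counts, Hdc at 13.7 to 45.5, Mcpt1 at 1.82 to 21.0 and Mcpt2 at 0 to 8.81. The part of mast cells in the Hpgds values was not tested.

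Il25 (ENSMUSG00000040770, chromosome 14, 54932695 to 54935837), the tuft cell cytokine, was at the edge of detection. Vil-Cre mice 1 to 5 had 4, 1, 0, 0 and 2 reads and Vil-Cre:NDI1 mice 1 to 5 had 1, 0, 11, 0 and 2. Vil-Cre:NDI1 3 alone was above 4 reads, at 10.7 normalized counts, and a count of 0 allows up to 3 reads by counting error alone. The difference of log2 values was 0.28 (two-sided exact permutation test, p = 0.762), and at these counts a change of this cytokine was not detectable.

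Dclk1 (ENSMUSG00000027797, chromosome 3, 55242364 to 55539068) encodes a microtubule-associated kinase that is widely used to stain tuft cells. Normalized counts were 272.9, 499.0, 435.8, 276.0 and 336.0 in Vil-Cre mice 1 to 5 and 200.0, 239.6, 216.9, 98.9 and 83.3 in Vil-Cre:NDI1 mice 1 to 5. The highest Vil-Cre:NDI1 mouse was below the lowest control mouse, and mice 4 and 5 were lower than the other 3. The group means were 363.9 ± 100 and 167.7 ± 71.6 (SD, n = 5 each), the second being 46.1% of the first. The log2 fold change was -1.20 (standard error 0.31, 95% interval -1.87 to -0.52), with an unadjusted p of 0.00248 and an adjusted p of 0.998 in limma. The two-sided exact permutation test gave p = 0.00794, unadjusted, the smallest that 5 mice against 5 allow. Every gene whose groups do not overlap gets that p, so it adds nothing to the lack of overlap. Over the other 21 settings the log2 fold change stayed between -1.35 and -0.98, and the adjusted p lay between 0.049 and 1.00. DESeq2 on the recovered reads of all 10 libraries gave an adjusted p of 0.0555. On the 8 libraries without Vil-Cre 3 and 4 it gave 0.049, and there it called 1.77% of genes with an adjusted p.

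Dclk1 is also made by neurons. The 8 enteric neuron markers summed to 314.4 to 595.3 normalized counts in Vil-Cre mice and 335.2 to 594.9 in Vil-Cre:NDI1 mice, and 4 of the 8 had a log2 fold change below 0. The mast cell list was lower in Vil-Cre:NDI1 libraries in sum (156.1 to 241.4 against 215.4 to 348.7), of which Kit, also a marker of pacemaker cells of the gut muscle, made up the largest share. Markers of the epithelium summed to 122800 to 156300 in Vil-Cre and 131300 to 170500 in Vil-Cre:NDI1 mice, and with every library rescaled to the same sum the Dclk1 log2 fold change was -1.28. The part of neurons or pacemaker cells in the Dclk1 values was not tested. Counts per gene do not separate transcripts from the upstream and downstream starts.

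Avil (ENSMUSG00000025432, chromosome 10, 127000709 to 127020994) encodes advillin, an actin-bundling relative of villin. Vil-Cre mice 1 to 5 had 211.2, 295.5, 456.8, 180.0 and 281.7 normalized counts and Vil-Cre:NDI1 mice 1 to 5 had 128.4, 307.0, 336.0, 124.4 and 185.5. The mice fell in nearly the same order as for Trpm5, and the groups overlapped. Avil had a log2 fold change of -0.45 (95% interval -1.16 to 0.27, adjusted p = 0.998 with limma), and it was -0.26 without Vil-Cre 3 and -0.28 without Vil-Cre:NDI1 4. Tsfm overlaps an Avil exon on the other strand and had 154.9 to 274.2 normalized counts.

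Sh2d6 (ENSMUSG00000052631, chromosome 6, 72513641 to 72521707) encodes an SH2-domain protein. It ranged from 89.1 to 607.1, with 151.4, 228.7, 607.1, 148.6 and 361.3 normalized counts in Vil-Cre mice 1 to 5 and 161.7, 260.6, 428.9, 89.1 and 131.5 in Vil-Cre:NDI1 mice 1 to 5. Sh2d6 varied 6.81-fold between the lowest and the highest mouse, and the groups overlapped. Its log2 fold change was -0.48 (95% interval -1.50 to 0.54, adjusted p = 0.998 with limma). Single mice moved it, to -0.17 without Vil-Cre 3, to -0.22 without Vil-Cre:NDI1 4 and to -0.78 without Vil-Cre:NDI1 3.

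Per kb of exon, counted over all annotated exons of a gene, Sh2d6 had the highest mean level over the 10 mice. It had 152.0 ± 96.6 normalized counts per kb (SD, n = 10). Avil followed at 73.8 ± 30.7, Ptgs1 at 71.9 ± 12.2, Trpm5 at 55.6 ± 20.1, Dclk1 at 17.4 ± 8.63 and Gfi1b at 13.7 ± 22.2. Pou2f3 was at 10.5 ± 5.93, Hpgds at 7.85 ± 5.82, Gnat3 at 7.74 ± 4.34 and Il25 at 1.95 ± 3.07. Sh2d6 was above Avil, and Trpm5 above Dclk1, in 10 of 10 mice. The order of Trpm5 and Dclk1 depends on the exon length used, 6.398 kb for Trpm5 and 15.296 kb for Dclk1. Before division by length, Dclk1 was above Trpm5 in Vil-Cre 2 (499.0 against 378.6 normalized counts) and Vil-Cre 4 (276.0 against 258.8). It was below Trpm5 in the other mice. Gnat3 was above Il25 in 9 of 10 mice. Between the other neighbours in this order the mean difference was smaller than its SD over mice. Gfi1b was at rank 9 of the 10 genes in the Vil-Cre group and at rank 5 in the Vil-Cre:NDI1 group.

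Read together, all 8 genes tested had a log2 fold change below 0, with a median of -0.45. Over all 14301 genes tested, 48.8% were below 0 and the median was 0.0052. Both genes that did not pass the filter, Gfi1b and Il25, were above 0, so the direction was not shared by all 10 genes. The 8 genes were measured in the same mice and some of them varied together, so their signs are not independent of each other. With 1 mouse left out the median ran from -0.69 without Vil-Cre 4 to -0.21 without Vil-Cre 3, and 7 of 8 were below 0 without Vil-Cre 2 or without Vil-Cre:NDI1 1. Without Vil-Cre 5, all 8 were below 0, with a median of -0.38. Among marker lists of other cells measured in these libraries, 11 of 11 enterocyte markers were above 0 (median log2 fold change 0.23) and 5 of 5 T cell markers below 0 (median -0.18). Also below 0 were 4 of 4 B and plasma cell markers tested (median -0.63), 5 of 7 macrophage markers (-0.46) and 2 of 2 mast cell markers tested (-0.44). The medians of the smooth muscle, platelet, enteric neuron, enteroendocrine and epithelium lists lay between -0.065 and 0.081. The part of these cells in the tuft cell values was not tested.

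Trpm5, Avil and Sh2d6 rose and fell together from mouse to mouse. Over the 10 mice, Pearson's r of log2(value + 1) was 0.963 between Trpm5 and Avil, 0.942 between Trpm5 and Sh2d6, and 0.908 between Avil and Sh2d6 (Spearman 0.952, 0.891 and 0.879). Without the 2 mice farthest from the median of the first gene of each pair, r was 0.943, 0.892 and 0.943, and over deviations from the group means it was 0.962, 0.936 and 0.901. The points of each pair share libraries, depth and size factors, and these values are descriptions. Avil kept nearly the same ratio to Trpm5 in every library, 0.618 to 0.793 in Vil-Cre and 0.555 to 0.747 in Vil-Cre:NDI1 mice, while Trpm5 varied 3.46-fold and Avil 3.67-fold over the 10 mice.

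The other genes followed these 3 less closely. Of 28 pairs among the 8 genes, 3 had r above 0.8, which are the pairs above, and the median r was 0.414, against 0.597% above 0.8 and a median of -0.0017 over all pairs of genes tested. Over deviations from the group means the median was 0.354. Ptgs1 and Hpgds had the lowest r of all pairs, -0.430. Dclk1 correlated with Trpm5, Avil and Sh2d6 at r of 0.609 to 0.661, and its ratio to Trpm5 was 0.738 to 1.32 in Vil-Cre mice and 0.274 to 0.864 in Vil-Cre:NDI1 mice. In 4 of 5 Vil-Cre:NDI1 libraries that ratio was below every control, while in Vil-Cre:NDI1 1 it was 0.864. Pou2f3 correlated with Trpm5 at 0.521 and Gnat3 at 0.287.

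**Figure D2:**
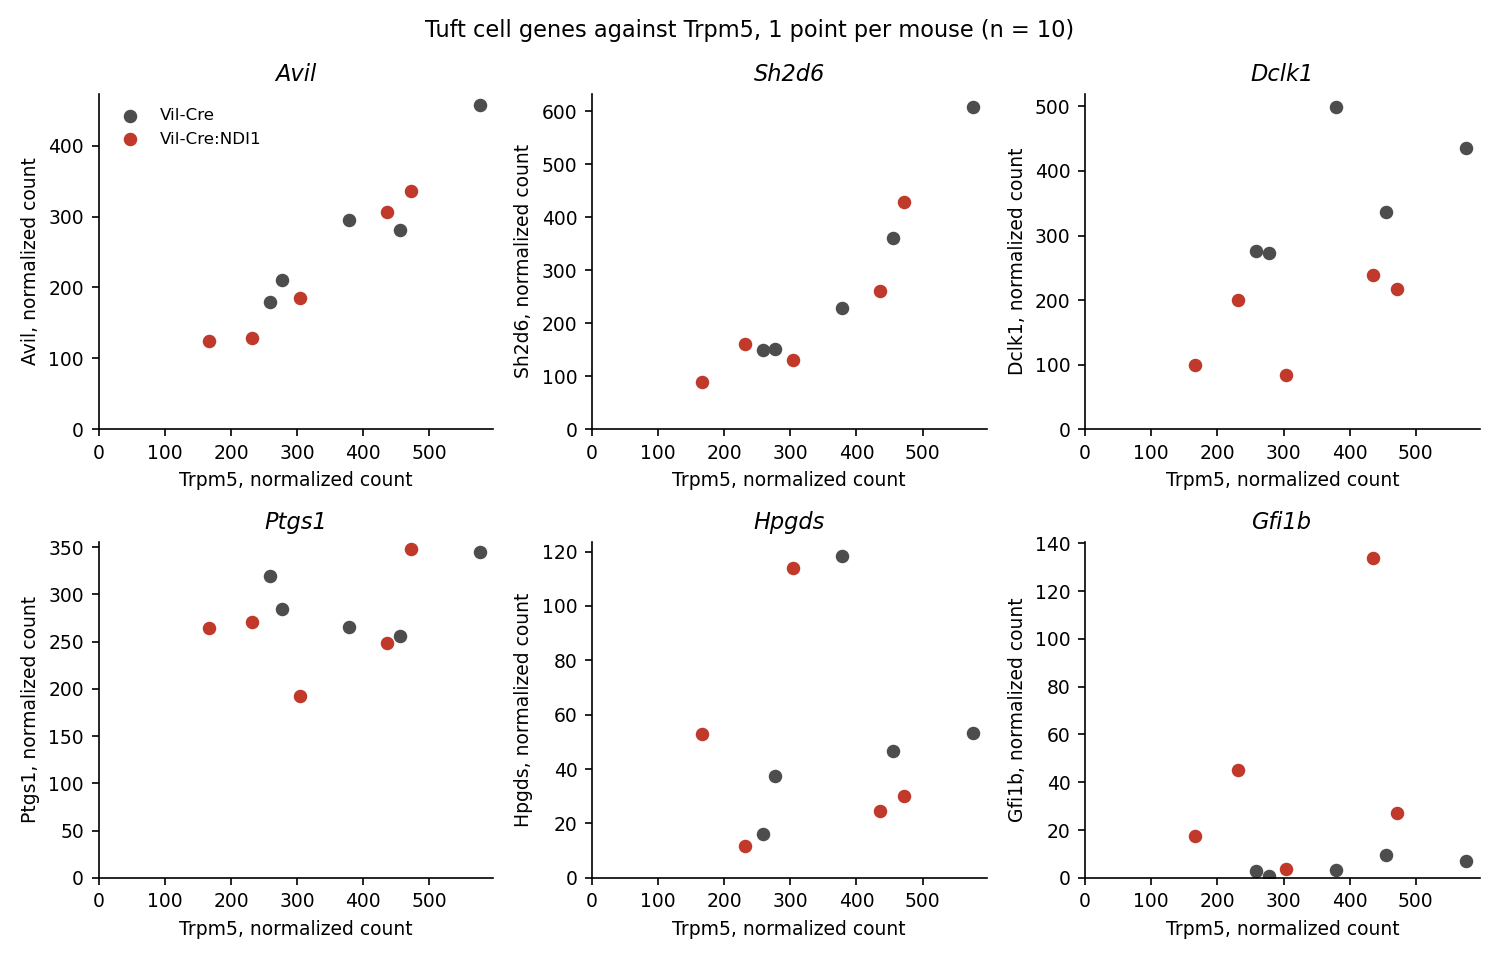
Normalized counts of Avil, Sh2d6, Dclk1, Ptgs1, Hpgds and Gfi1b (vertical axes) against Trpm5 (horizontal axes), 1 point per mouse, with Vil-Cre in grey and Vil-Cre:NDI1 in red. Avil and Sh2d6 lie near a line in both groups, and Ptgs1, Hpgds and Gfi1b follow no such line. Relative to Trpm5, Dclk1 lies lower in Vil-Cre:NDI1 mice than in controls, except in Vil-Cre:NDI1 1, whose ratio is within the control range.

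A tuft cell level per mouse was taken as the mean of the 8 standardised log2 values. In SD units it was -0.100, 0.60, 1.25, -0.45 and 0.51 in Vil-Cre mice 1 to 5 and -0.91, -0.12, 0.52, -0.70 and -0.59 in Vil-Cre:NDI1 mice 1 to 5. The 3 lowest mice were Vil-Cre:NDI1 mice and the highest was a control mouse, while the ranges overlapped. Of all other genes tested, the 10 with the highest r to this level over the 10 mice included Sh2d7 (0.964), Pik3r5 (0.962), Nrgn (0.953), Alox5 (0.943), Kctd12 (0.935), Strip2 (0.932), Lrmp (0.930), Spib (0.915) and Reep5 (0.910). Spearman's rho of the 10 genes was 0.879 to 0.976. Among them are Alox5, the 5-lipoxygenase of leukotriene synthesis, and Spib, an ETS-family transcription factor. Of the 10, 7 belong to a list of 35 other tuft cell genes, and Pik3r5, a phosphoinositide 3-kinase subunit, Nrgn, a calmodulin-binding protein, and Reep5, a protein of the endoplasmic reticulum, do not. Of the 32 genes of that list that could be tested, 15 (46.9%) had r above 0.8, against 90 of 14293 genes (0.63%), and 13 did so over deviations from the group means. The list was chosen with earlier results of these data known, so these counts are descriptions and not independent support.

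**Figure D3:**
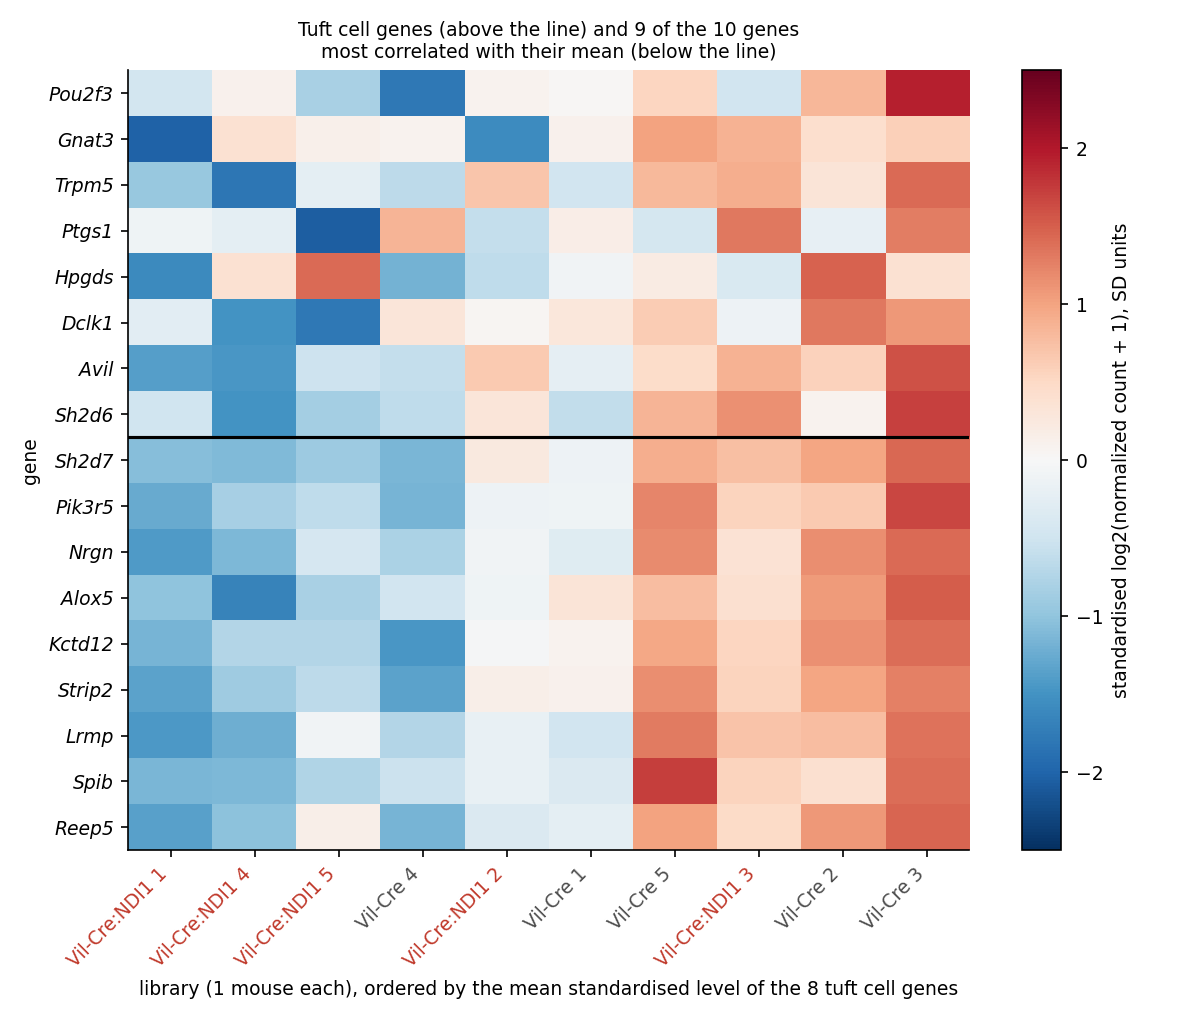
Standardised log2(normalized count + 1), in SD units, of the 8 tuft cell genes tested (above the line) and 9 of the 10 genes with the highest r to their mean (below the line), in the 10 libraries ordered by that mean. The libraries run from Vil-Cre:NDI1 1 at the low end to Vil-Cre 3 at the high end. The genes below the line were chosen for that r, so their change from low to high is built in, and it is not even for each gene. Ptgs1, Hpgds and Gnat3 depart from that order.

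Summed markers of other cells followed the tuft cell level less closely. Over the 10 mice r was 0.536 for smooth muscle, 0.517 for enteric neurons, 0.362 for mast cells, 0.226 for enteroendocrine cells, -0.109 for platelets, -0.179 for T cells, -0.259 for enterocytes, -0.348 for macrophages, -0.376 for the epithelium as a whole and -0.450 for B and plasma cells. These sums share depth and scaling with the tuft cell values. Most of the macrophage sum is Mertk, of the platelet sum Gp1bb, of the mast cell sum Kit and of the B and plasma cell sum Jchain. Their r values therefore describe those abundant genes more than the cells, and the other markers of a list can differ.

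The 35 other genes of tuft cells, chosen with earlier results of these data known, fell into 5 roles. They covered taste receptors and their signalling, leukotriene and acetylcholine synthesis, cytokine receptors, signal transduction and surface proteins. Of 32 that could be tested, 0 passed the threshold with limma, 8 had an unadjusted p under 0.05 with Vil-Cre:NDI1 lower and 0 with it higher, and 26 had a log2 fold change below 0, with a median of -0.49. Over all genes tested, 2.11% had an unadjusted p under 0.05 with Vil-Cre:NDI1 lower and 48.8% were below 0. The 8 were Alox5 (-1.04), Ptpn6 (-0.73), Il17rb (-0.51), Nebl (-1.27), Ccdc129 (-1.10), Cd300lf (-0.67), Rgs13 (-0.71) and Spib (-1.07), all values being log2 fold changes. Il17rb is a subunit of the IL-25 receptor, Cd300lf a surface receptor, Rgs13 a regulator of G-protein signalling and Ptpn6 the phosphatase SHP-1. Ptpn6 was the only one of the 32 whose groups did not overlap, against 0.294% of all genes with Vil-Cre:NDI1 lower.

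This count moved with single mice. Leaving out 1 mouse gave 2 to 18 genes with an unadjusted p under 0.05, 18 without Vil-Cre 4 and 2 without Vil-Cre 3. Without Vil-Cre 5 there were 3, against 1.66% of all genes tested in that setting, and 27 of 32 genes were below 0 with a median of -0.35. Vil-Cre 5 held the highest values of Spib (431.2) and Ptpn6 (1074), which B cells also express, beside its high Cd79a. Several of the list's genes, Alox5, Vav1 and Ptpn6 among them, are also made by white blood cells. Of the 7 macrophage markers, 5 were below 0 with a median log2 fold change of -0.46, although their sum, most of it Mertk, was higher in Vil-Cre:NDI1 mice (1.17-fold). The 4 B and plasma cell markers tested were below 0 with a median of -0.63. The part of white blood cells in these counts was not tested.

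By role, 10 of 10 signal transduction genes and 8 of 9 surface and other genes were below 0. Leukotriene and acetylcholine synthesis was divided, with 3 of 5 below 0. Ltc4s, the leukotriene C4 synthase, was level at 50.3 ± 20.6 and 52.3 ± 15.8 normalized counts (SD, n = 5 each), while Alox5 was at 115.4 ± 45.9 and 56.3 ± 25.9 in the same order (SD, n = 5 each). Of 5 tested taste receptors and signalling genes, 3 were below 0. Sucnr1, the succinate receptor of tuft cells, had 31.2 ± 27.3 and 15.2 ± 11.3 normalized counts (SD, n = 5 each). Among the cytokine receptors, Il13ra1 and Il4ra, which many cells of the gut wall express, had log2 fold changes of 0.041 and -0.034.

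**Figure D4:**
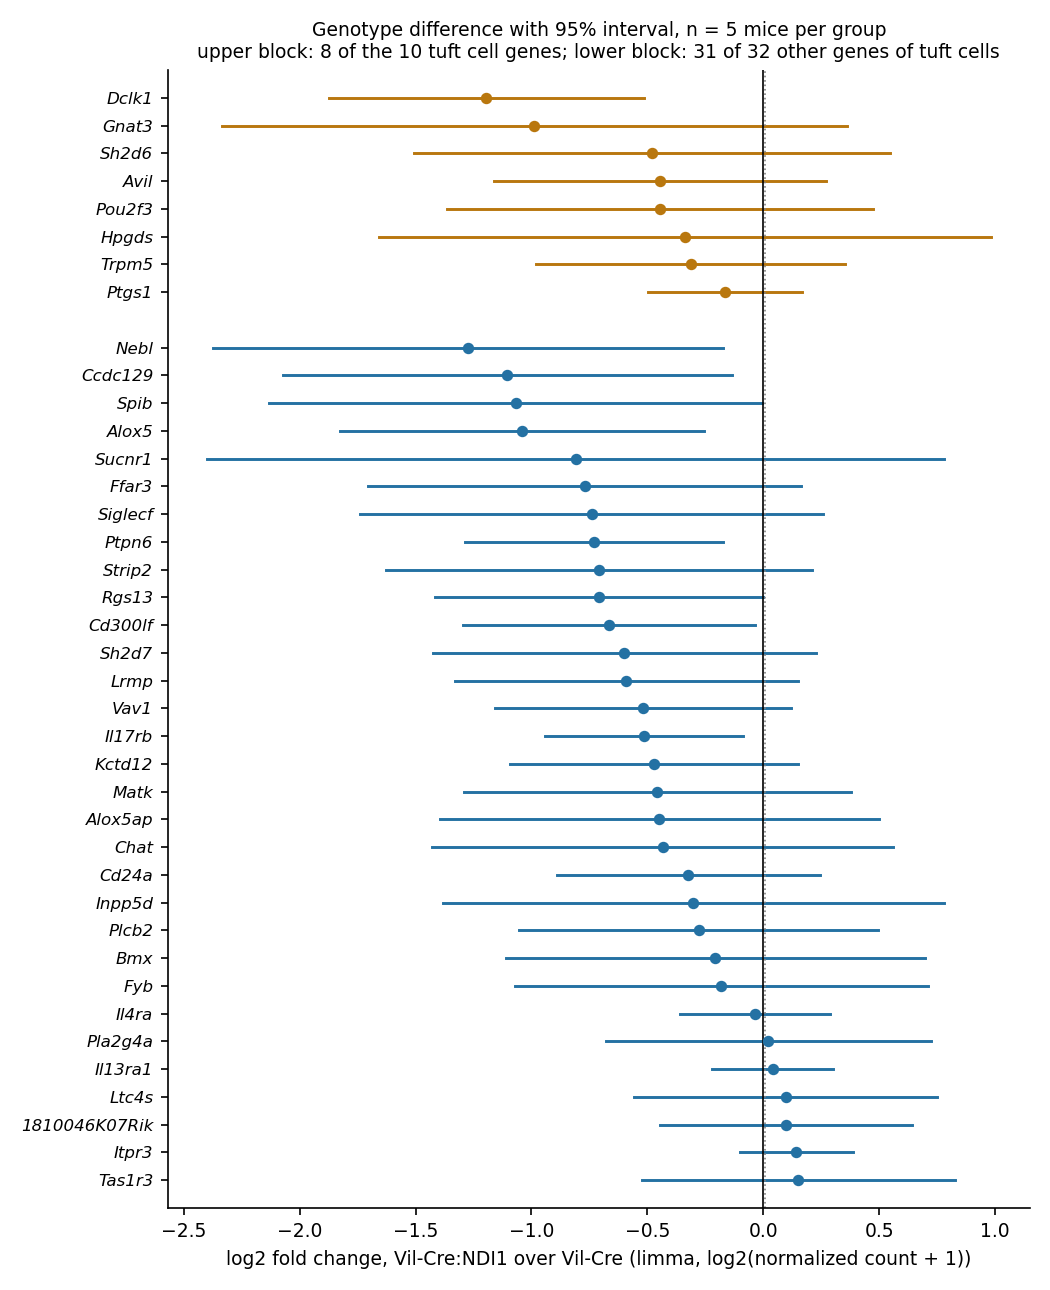
Log2 fold change of Vil-Cre:NDI1 over Vil-Cre (limma on log2(normalized count + 1)) with its 95% interval, for 8 of the 10 tuft cell genes (upper block) and 31 of 32 other genes of tuft cells (lower block), n = 5 mice per group. The solid line marks 0 and the dotted line the median of all genes tested, 0.0052. The points lie mostly left of 0, and among the upper 8 genes only the interval of Dclk1 does not reach 0.

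The type 2 loop downstream of IL-25 was visible only in part. Of 13 genes, 5 could be tested and 0 passed the threshold with limma. Il4, Il5, Il9 and Il13 were at group means of 0 to 0.397 normalized counts, so a change in these cytokines was not detectable at this depth. Il33, an epithelial and stromal alarmin, had 111.0 ± 44.5 normalized counts in control mice and 164.9 ± 47.4 with NDI1 (SD, n = 5 each). Its log2 fold change was 0.60, with an unadjusted p of 0.0471 in limma. The goblet cell gene Clca1 was abundant, at 8036 to 25880 normalized counts over the 10 mice. It had a log2 fold change of -0.59 (unadjusted p = 0.0642 with limma), and Il1rl1, the IL-33 receptor, one of -0.45 (unadjusted p = 0.319 with limma). None of the 3 had an adjusted p under 0.05.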

How the data were processed

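Jejunal RNA was sequenced single-end, 1 library per mouse, for 5 mice of each genotype. Per the methods, the authors used trimGalore! for trimming, STAR for alignment (GRCm38 plus NDI1), Salmon for gene assignment and DESeq2 for normalization. The values they deposited are therefore a signal, namely counts per gene over 1 size factor for each library. The study compared groups by DESeq2 Wald tests with a local dispersion fit. DESeq2 on recovered reads, an alternative here, used the same kind of test and fit. The annotation release and the strand setting are not given in the sources used here. Gene positions and exon lengths are from GENCODE M21, in which 45143 of the 45707 identifiers were found.

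Each library's smallest value above 0 was taken as 1 read, and 100% of its values were whole multiples within 0.05. For Vil-Cre 3 and 4 that value is near 1, at 1.0018 and 1.0111, but their values were not whole numbers. Pou2f3 stood at 77.14 for 77 reads in Vil-Cre 3 and at 11.12 for 11 reads in Vil-Cre 4. Count tests were run on all 10 libraries and, with fewer control mice, on the other 8. Depth was 10145705 to 12371530 reads. Floors cover counting error only.

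Groups were compared with limma 3.58.1 (R 4.3.3) on log2(value + 1). Its eBayes step used a trend, and p-values were adjusted after Benjamini and Hochberg, with 0.05 as the threshold. The 14301 genes tested reached 10 normalized counts in 5 or more mice. On this scale the fold change of a low gene depends on the pseudocount. For Gfi1b and Il25, which did not pass the filter, all 252 assignments of the 10 mice were enumerated in a two-sided exact permutation test. For Dclk1 that test is given beside limma. The genes named are the 10 tuft cell genes, members of the lists of other tuft cell and type 2 genes, the 10 genes most correlated with the tuft cell level, and markers beside results they move with. The members and lists were chosen with earlier results of these data known, and the red cell list after the Gfi1b values. Alternatives were pseudocounts of 0.1 and 8, every gene with a read, a filter of 50, equal totals, a replicate block, edgeR 4.0.16 and DESeq2 1.42.0 on recovered reads, each mouse left out, and, added after seeing the data, equal epithelium markers and the 8 libraries. The labels give no batch. Another 2 genes of these lists are not reported here, and counts include them.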

Additional observations from a re-analysis of the deposited data

Results flagged for a closer look

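Of 20 groups of 5 values, 1 for each of the 10 genes in each genotype, 1 held a mouse whose gap to the nearest other mouse was too large a share of the group's range by Dixon's criterion. Chance flags about 1 in 20 groups. The value was Il25 in Vil-Cre:NDI1 3, at 10.65 normalized counts (11 reads), while the other 4 mice of that group had 0 to 2.35. The gap was 0.78 of the range, where 0.71 is the limit for 5 values. Vil-Cre:NDI1 3 was also the highest mouse of its genotype for Trpm5, Avil and Sh2d6, within the control range.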

How the results depend on the processing

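The tests saw few reads for Gfi1b, Il25 and Gnat3, and 5 mice per group left wide intervals for the rest. All 8 tuft cell genes tested were below 0 with limma under both pseudocounts, equal totals, equal epithelium markers and the replicate block, and 0 were called in these settings. The number of tuft cell genes above 0 was 2 with every gene with a read and with DESeq2 on 10 or 8 libraries, since Gfi1b and Il25 then enter, 1 with edgeR on 10 or 8 libraries, since Gfi1b enters, and 0 to 1 with a mouse left out. Tuft cell genes called were 1 with DESeq2 on 10 libraries (Gfi1b) and 2 on 8 (Gfi1b and Dclk1, the latter at -1.14), where 2 other tuft cell genes, Rgs13 and Ptpn6, were also called. All genes called were 1 in the main comparison and 2 with a filter of 50. With a mouse left out they were 1 to 3 (2 without Vil-Cre:NDI1 1 and 3 without Vil-Cre:NDI1 5). DESeq2 called 31 of 16976 genes with an adjusted p (0.183%) on 10 libraries and 276 of 15601 (1.77%) on 8. The cause was not tested.

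Signs reversed in 3 cases, Hpgds at 0.0066 without Vil-Cre 2 and 0.039 without Vil-Cre:NDI1 1, and Il25 at -0.29 without Vil-Cre:NDI1 3. With a mouse left out, Hpgds ran from -0.75 to 0.039 and Il25 from -0.29 to 0.60. The median log2 fold change of the 8 genes ran from -0.69 to -0.21, and the median r among them from 0.285 to 0.508. Gfi1b was past its threshold by exact test but not by limma with every gene with a read (2.47, adjusted p = 0.867) or by edgeR (3.21 and, on 8 libraries, 3.26). With equal epithelium markers 9747 of 14301 genes were below 0, so a share below 0 depends on the scaling.

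Over all genes tested, mice with the same replicate number did not deviate together (r of deviations -0.116 to 0.136). That r cannot decide whether the numbers pair the animals for the tuft cell genes. With the replicate block, 1 gene was called in all and 0 tuft cell genes, the median of the 8 was -0.45 and that of Dclk1 was -1.20 (adjusted p = 0.999 with limma). The unadjusted limma p of Avil was 0.0136 with the block and 0.198 without, and that of Trpm5 0.0597 and 0.325. Those of Pou2f3 and Hpgds were slightly higher with it, at 0.337 and 0.588. Of the 32 other tuft cell genes, 14 then had an unadjusted p under 0.05 with Vil-Cre:NDI1 lower, against 1.95% of all genes. Without the block there were 8.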
